A study of Caenorhabditis elegans with 4 samples.

Results

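Chromosome IV of Caenorhabditis elegans carries most of the worm's piRNA genes (21U-RNA genes) in 2 broad domains, and 295 of the 6095 regions called as bound by FOS-1::GFP in first-stage (L1) larvae lay in them. The members were chosen by position alone. They were the peaks of the list called on both ChIP libraries together (the combined list) whose midpoint fell from position 4500000 to 7000000 (the first domain, 162 peaks) or from 13500000 to 17200000 (the second domain, 133 peaks) of chromosome IV, in the WormBase WS220 build that the peak files use. The other 743 of the 1038 combined peaks on chromosome IV, the rest of IV, served as the comparison. The series held 2 ChIP libraries and 2 input DNA libraries (chromatin set aside before precipitation) from fed L1 hermaphrodites of the strain OP304, grown at 20 °C. All animals, ChIP and input alike, carried the unc119(ed3) allele and the transgene wgIs304 (fos-1::TY1 EGFP FLAG;unc119), made by bombardment, so no strain without the tagged protein stood beside them. The labels describe the fusion as expressed in the pattern of fos-1. Chromatin of whole larvae was precipitated with a goat antibody against eGFP, so cell types cannot be told apart.

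piRNAs are short germline RNAs that bind the Piwi protein PRG-1 and direct it to foreign and transposon transcripts; the germline of an L1 larva consists of a few precursor cells. In the worm each is made from its own tiny gene, and the genes lie crowded in introns and between coding genes of chromosome IV. FOS-1 is the worm's Fos-family bZIP transcription factor, known above all from the somatic gonad, where the anchor cell needs it to breach the basement membrane. Of the 15363 piRNA genes in the RefSeq annotation of the WBcel235 assembly, 14714 (95.8%) are on chromosome IV. That assembly is not the build of the peaks, so single piRNA genes, coding genes and sequences were not placed beside the peaks, and the borders of the domains were not checked against the genes.

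The 2 domains did not look alike. Against the rest of IV, the second domain was sparse in FOS-1 peaks in each list, and the first was not. The combined list held 35.9 peaks per Mb in the second domain (exact Poisson 95% interval 30.1 to 42.6), against 65.9 in the rest of IV (61.3 to 70.8). The density ratio was 0.55 (95% interval 0.45 to 0.66). The first domain held 64.8 peaks per Mb (55.2 to 75.6), and its ratio to the rest of IV was 0.98 (0.82 to 1.17), an interval that includes 1. Both domains together had 47.6 peaks per Mb (42.3 to 53.3) and a ratio of 0.72 (0.63 to 0.83), so this pooled figure averages unlike parts.

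Each replicate gave the same order. In replicate 1 the second domain had 28.4 peaks per Mb (23.2 to 34.4) and the rest of IV 49.3 (45.3 to 53.6), a ratio of 0.58 (0.46 to 0.71). In replicate 2 the second domain had 15.1 peaks per Mb (11.4 to 19.7) and the rest of IV 23.8 (21.0 to 26.8), a ratio of 0.64 (0.47 to 0.85). The first domain's ratio was 0.92 (0.75 to 1.13) in replicate 1 and 0.89 (0.65 to 1.20) in replicate 2. Set directly against the first domain, the second had a combined density ratio of 0.55 (0.44 to 0.70). The replicate 1 list gave 0.62 (0.47 to 0.82) and the replicate 2 list 0.71 (0.48 to 1.06), an interval that includes 1. These intervals cover counting error only and treat peaks as independent, although neighbouring peaks cluster. No p-value was computed, since every peak comes from the same 2 libraries and no samples stand on either side of the comparison.

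**Figure D1:**
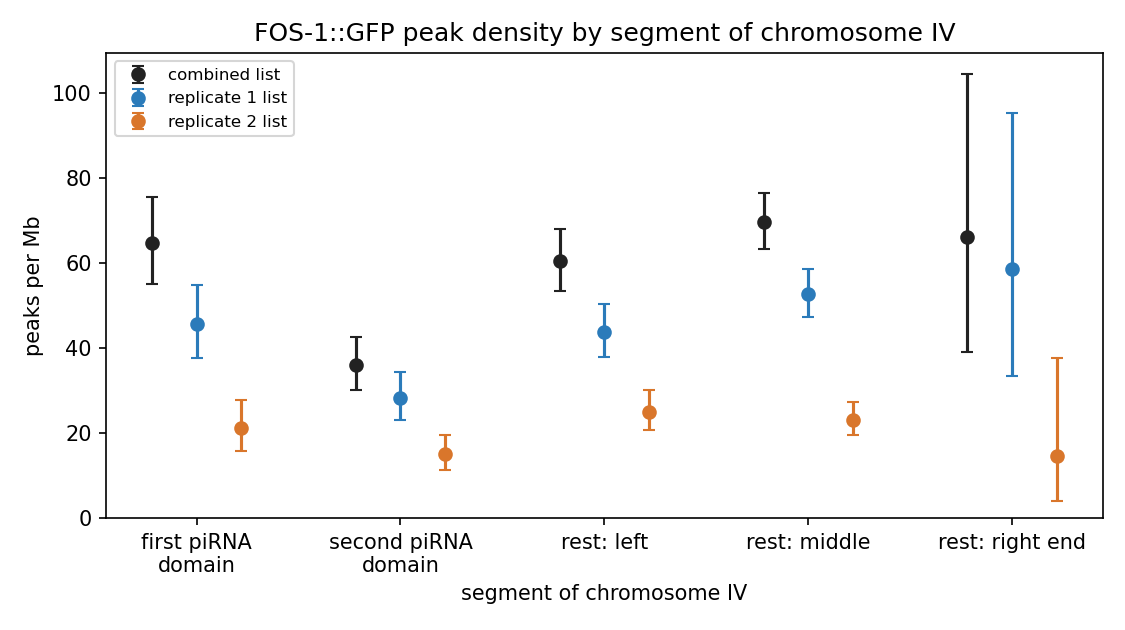
Peaks per Mb in 5 segments of chromosome IV, with exact Poisson 95% intervals as bars, for the combined, replicate 1 and replicate 2 lists. The second piRNA domain sits at 35.9, 28.4 and 15.1 peaks per Mb in the 3 lists, and the first at 64.8, 45.6 and 21.2.

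The ChIP libraries held 6307945 and 6005290 reads, with 3763795 and 2961912 placed uniquely, and the input libraries held 4425317 and 4542354 reads. Replicate 1 gave 4032 peaks and replicate 2 gave 1987, and the authors merged the reads of both for the combined list. The labels do not say if the replicates were separate cultures, so any spread between them may be technical. Absence from a list means no call at this depth, not absence of binding.

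The low density of the second domain ran along its length. In windows of 500 kb the combined counts in the second domain were 21, 16, 29, 19, 16, 18 and 12 from left to right, with a median of 18. The end of the domain shares a window with the right end of the chromosome and is left out here. The 22 full windows of the rest of IV held between 25 and 45 combined peaks, with a median of 31.5. All 7 windows of the second domain were below that median, and only the window from 14.5 to 15.0 Mb, with 29, was within the range of the rest. It held 27 peaks in replicate 1 and 13 in replicate 2, the most in the second domain in both lists. The fewest combined peaks of any full window on IV, 12, were from 16.5 to 17.0 Mb. In replicate 1 the windows of the second domain held between 11 and 27 peaks (median 13), against 16 to 37 in the rest of IV (median 24). In replicate 2 they held between 4 and 13 (median 7), against 8 to 19 (median 11.5). In both replicate lists 6 of the 7 windows were below the median of the rest, while the ranges overlapped.

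The first domain was uneven instead. Its 5 windows held 23, 34, 50, 21 and 34 combined peaks. The window from 5.5 to 6.0 Mb, with 50, had the most combined peaks of any on chromosome IV, while those from 4.5 to 5.0 Mb and from 6.0 to 6.5 Mb were below every full window of the rest. The dense window held 34 peaks in replicate 1 and 13 in replicate 2, both inside the range of the rest of IV. Replicate 1 had 17, 18, 34, 16 and 29 peaks in the 5 windows, and replicate 2 had 14, 9, 13, 6 and 11. The window from 4.5 to 5.0 Mb was thus inside the range of the rest of IV in both replicate lists. That from 6.0 to 6.5 Mb was below the range in replicate 2 but not in replicate 1.

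**Figure D2:**
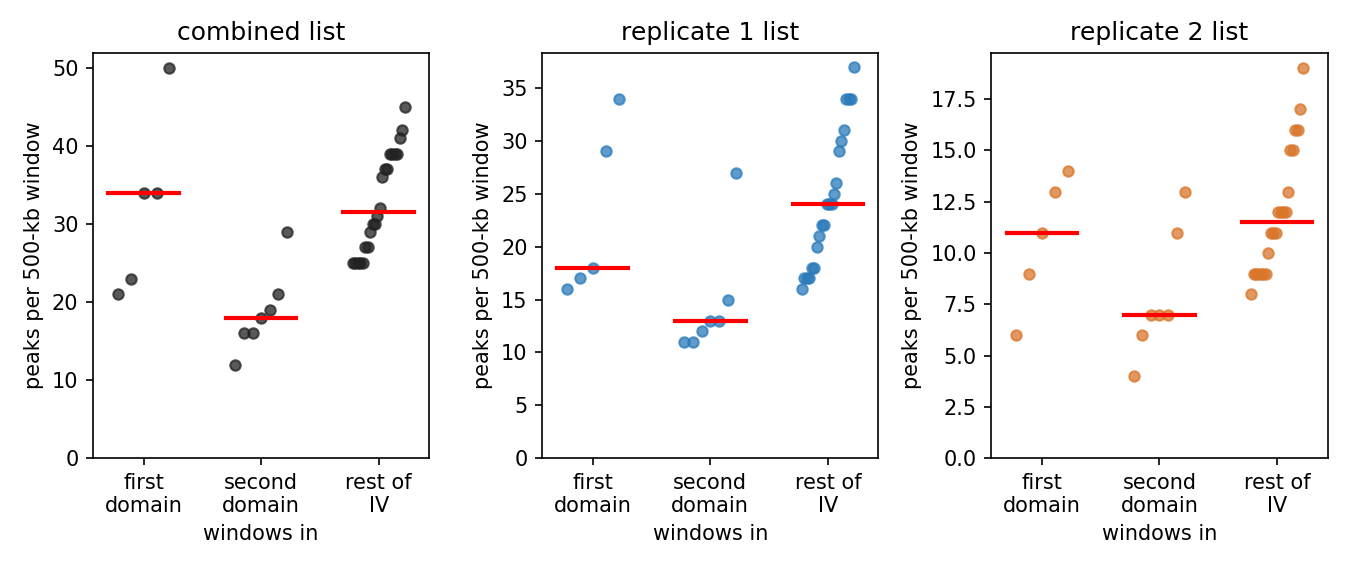
Peaks per 500-kb window in the first domain (5 windows), the second domain (7 windows) and the rest of chromosome IV (22 full windows), with 1 panel per list, points as windows and red lines as medians. The combined medians are 34, 18 and 31.5, and the highest window, with 50 peaks, is in the first domain.

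The first domain lies toward the middle of the chromosome and the second on its right arm, and peak density can follow such position. The second domain had 35.9 combined peaks per Mb, against 58.6 (51.1 to 67.0) in its mirror image on the left arm of IV, at the same distance from the other end. The ratio was 0.61 (0.49 to 0.76). That ratio was 0.67 (0.52 to 0.87) in replicate 1 and 0.62 (0.43 to 0.87) in replicate 2. For the first domain the ratio to its mirror image was 0.95 (0.76 to 1.19) in the combined list.

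Some other arms were as sparse, however. The second domain, with 35.9 combined peaks per Mb, runs from 77.3% to 98.4% of the chromosome's length. At that relative span chromosomes I, II and III had 57.0, 58.8 and 72.4 combined peaks per Mb, and chromosome V had 19.4 (15.5 to 24.0). At the mirrored span the values were 61.4 on I, 32.2 on II (26.3 to 39.0), 52.1 on III and 27.1 on V (22.5 to 32.4). In the combined and replicate 1 lists the second domain had a lower density than 5 of these 8 arm segments and a higher one than 3. In replicate 2, at 15.1 peaks per Mb, it was lower than 3 and higher than 5, in a range of 4.29 to 29.7. Relative to its own chromosome the domain stood at 0.61 of the mean density in the combined list. The right arm segment of V and the left arm segment of II both stood at 0.50. All the other arm segments stood higher than the domain by this measure in the combined list, at 0.69 to 0.96. The left arm segment of V was at 0.70 there. In the replicate lists that segment of V stood lower than the domain. It was at 0.60 against 0.64 in replicate 1 and at 0.67 against 0.70 in replicate 2. A low count on an arm was therefore not particular to the piRNA domain. The first domain, with 64.8 combined peaks per Mb, stood beside 77.5, 72.8 and 88.8 at its relative span of chromosomes I, II and III and 37.1 on V. At the mirrored span the values were 99.7 on I, 70.0 on II, 78.2 on III and 46.8 on V. Of these segments only those of V had a lower density than the first domain in the combined list. In both replicate lists the same relative span of I was lower as well. It had 37.6 peaks per Mb against 45.6 in replicate 1, and 14.4 against 21.2 in replicate 2.

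**Figure D3:**
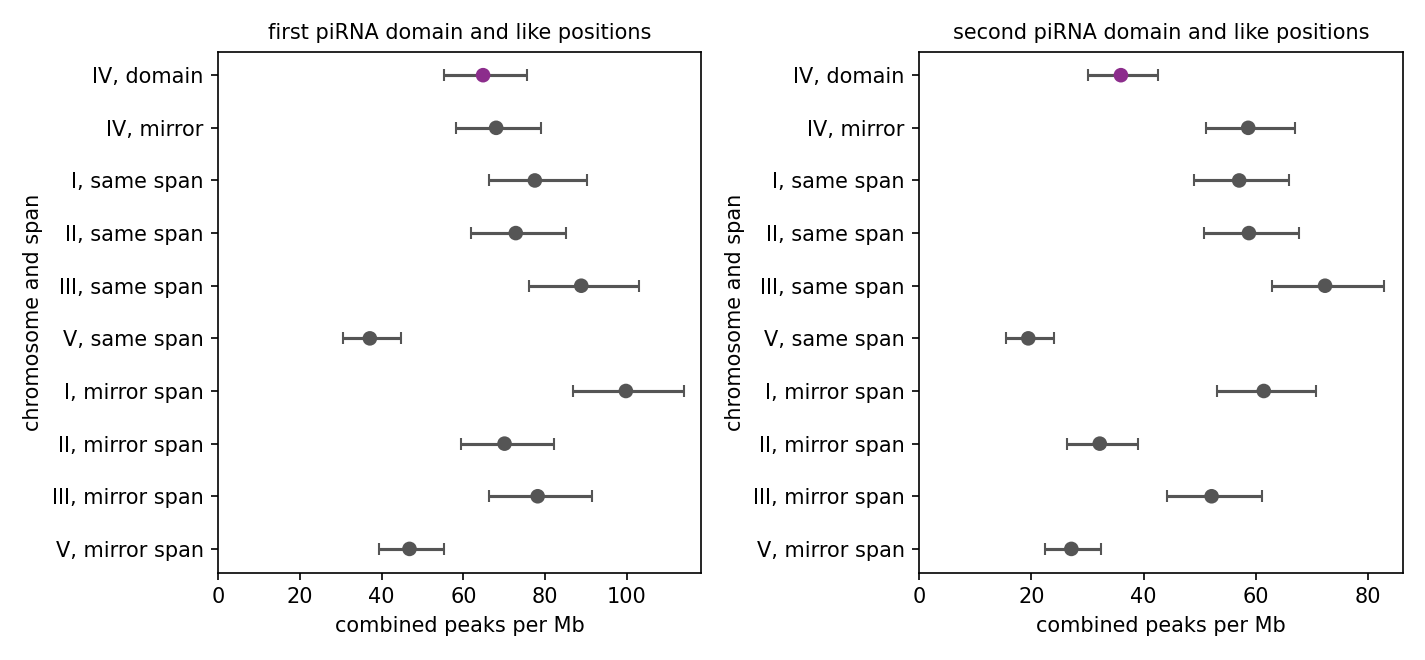
Combined peaks per Mb, with exact Poisson 95% intervals, in each piRNA domain (purple), at its mirror image on chromosome IV and at the same and mirrored relative spans of chromosomes I, II, III and V (grey). The second domain, at 35.9, is below its mirror on IV at 58.6 and lies near the left arm of II at 32.2.

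Single peaks in the domains were about as wide as elsewhere on the chromosome. The median width was 323 bp in the domains (95% interval of the median 306 to 345, quartiles 217 and 442) and 314 bp in the rest of IV (299 to 330, quartiles 200 and 434.5). It was 318.5 bp in the first domain and 332 bp in the second. In replicate 1 the medians were 313 bp in the domains and 300.5 bp in the rest of IV, and in replicate 2 they were 314 and 306 bp. Widths of members ran from 1 to 2905 bp, and 6 of the 295 (2.03%, exact 95% interval 0.75 to 4.37) exceeded 1000 bp, against 22 of 743 (2.96%, 1.86 to 4.45) in the rest of IV. Of these 6, 5 were in the second domain. All 6 overlapped peaks of both replicates, as did 20 of the 22 in the rest of IV. Members narrower than the 36-bp reads numbered 22 (7.46%, 4.73 to 11.1), against 32 (4.31%, 2.96 to 6.03). Peaks covered 1.43% of the second domain, 2.15% of the first and 2.38% of the rest of IV.

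Peak strength in the domains overlapped that of the rest of IV. The authors' q value per peak, used here only to rank and describe, had a median −log10 of 3.86 in the domains (3.57 to 4.19) and 4.09 in the rest of IV (3.75 to 4.48). The medians were 3.66 in the first domain and 4.02 in the second. The replicate lists did not share a direction, with 3.60 in the domains and 3.63 in the rest of IV in replicate 1, and 3.95 and 3.45 in replicate 2. Of the 104 strongest combined peaks of chromosome IV, its top 10%, 32 were in the domains (30.8%, exact 95% interval 22.1 to 40.6), which hold 28.4% of its combined peaks. The second domain held 19 of them and the first 13. In terms of each domain's own peaks, 14.3% of those in the second domain and 8.02% of those in the first were in that top 10%, against 9.69% in the rest of IV. In replicate 1 these shares were 15.2%, 7.89% and 9.53%, and in replicate 2 they were 14.3%, 3.77% and 10.4%. In none of the 3 lists was the second domain's share of strong peaks below that of the rest of IV, although its density was. The combined share, 19 of 133, has an exact 95% interval of 8.83 to 21.4, which includes the 9.69% of the rest of IV. The combined list also holds the reads of both replicates, so the 3 lists are not separate evidence.

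**Figure D4:**
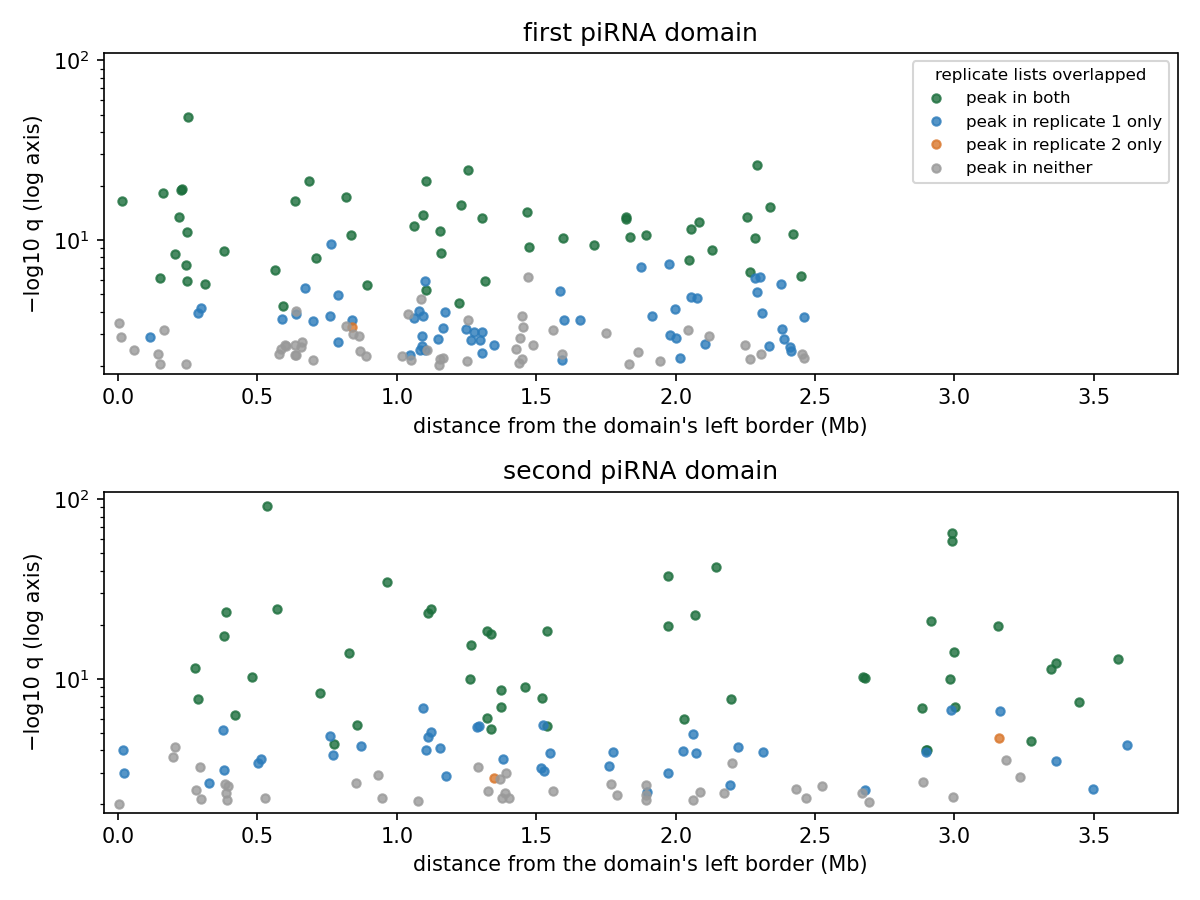
Each of the 295 combined peaks in the domains by its distance from the left border of its domain (Mb) and its −log10 q (log axis), coloured by the replicate lists it overlaps. The strongest reach 91.3 in the second domain and 48.3 in the first, and every peak above 10 overlaps both replicate lists.

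The strongest member was at IV 14032552 to 14034627 in the second domain. It was 2076 bp wide with a combined q of 4.70e-92, which ranked 19 among all 6095 combined peaks. Replicate 1 had 1 peak there of 1967 bp (q = 6.37e-56, rank 20 of its list) and replicate 2 had 1 of 1912 bp (q = 1.20e-33, rank 17). The position and width were thus close in the 2 libraries. Each of the 10 strongest members of either domain was found in both replicate lists.

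The next strongest in the second domain were neighbours. The peak at 16490995 to 16492850 was 1856 bp wide (combined q = 5.84e-66, rank 34), with q values of 3.03e-39 in replicate 1 and 8.47e-27 in replicate 2. The peak at 16489797 to 16490390 was 594 bp wide (combined q = 1.37e-59, rank 43), with 1.14e-41 in replicate 1 and 4.09e-25 in replicate 2. They stood 604 bp apart, and both were also separate calls in each replicate list. They belonged to a group of 4 combined peaks, each no more than 2000 bp from the next, that spanned 16487523 to 16494055.

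The fourth to the sixth were of more usual width. They were at 15646340 to 15647000 (661 bp, combined q = 1.01e-42), 15471348 to 15471791 (444 bp, q = 6.26e-38) and 14464029 to 14464452 (424 bp, q = 3.81e-35). Their q values in replicate 1 were 1.05e-28, 1.59e-25 and 7.68e-25, and in replicate 2 they were 4.30e-15, 1.92e-13 and 3.67e-14. The peak at 15471348 belonged to a group of 3 combined peaks, and the other two had no neighbour within 2000 bp. The remaining named regions were at 14070561 to 14071464, 14619981 to 14622885, 13887130 to 13888051 and 14612526 to 14614688, with combined q values between 3.97e-25 and 6.97e-24.

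The widest member of all was among these, at 14619981 to 14622885 (2905 bp). It also exceeded the widest combined peak of the rest of IV, at 2099 bp. It was less uniform than the strongest ones, since replicate 1 called 3 peaks within it, the best with q = 4.16e-10, while replicate 2 called 1 of 1309 bp with q = 6.52e-10. Its neighbour at 14612526, 2163 bp wide, overlapped 2 peaks in each replicate. In both cases the merged reads gave a single call where a replicate list was split.

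The first domain had 1 strong peak and a more even field below it. That peak was at 4749842 to 4750392 (551 bp, combined q = 5.43e-49, rank 72), with q values of 9.08e-40 in replicate 1 and 3.17e-23 in replicate 2. Replicate 1 placed it at rank 40 and replicate 2 at rank 39. The following ones were at 6790431 to 6790875 (combined q = 9.07e-27) and at 5753277 to 5754623 (q = 3.23e-25). Then came the peaks at 5183675 to 5184115 and 5604341 to 5604946, whose combined q values were 3.95e-22 and 4.73e-22. The peak at 5753277 was the widest of the domain, at 1347 bp, and had nearly that width in replicate 1 (1348 bp) and 1127 bp in replicate 2. The peak at 5604341 had a q of 3.04e-16 in replicate 1 and 4.11e-05 in replicate 2.

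The other named regions of the first domain were at 4727915 to 4728205, 4725410 to 4725934, 4660251 to 4660846, 5317084 to 5317499 and 4513396 to 4513904, with combined q values between 6.72e-20 and 3.07e-17. Of the domain's 10 strongest peaks, 4 had their midpoint in its first 250 kb, which held 18 of its 162 members, a grouping noticed after the values were seen. The strongest peak, at 4749842 to 4750392, spans the end of that stretch and is not among the 4, so the count depends on the cut. The window from 5.5 to 6.0 Mb, with the most peaks, held 2 of the 10.

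Members were found in the replicates about as often as other peaks of IV. Of the 295 members, 101 (34.2%, exact 95% interval 28.8 to 40.0) overlapped a peak of both replicate lists by at least 1 bp, against 246 of 743 (33.1%, 29.7 to 36.6) in the rest of IV and 29.1% of all combined peaks. Counting replicate 1 with or without replicate 2 gave 197 members (66.8%), against 514 (69.2%) in the rest of IV and 61.8% of all combined peaks. Counting replicate 2 in the same way gave 104 members (35.3%), against 262 (35.3%) in the rest of IV and 31.5% of all combined peaks. In all, 96 (32.5%) overlapped replicate 1 only, against 268 (36.1%) in the rest of IV and 32.7% of all combined peaks. Replicate 2 only accounted for 3 members (1.02%), against 16 (2.15%) in the rest of IV and 2.4% of all. Neither list held 95 members (32.2%, 26.9 to 37.9), against 213 (28.7%, 25.4 to 32.1) in the rest of IV and 35.8% of all. The share in both was 31.5% (24.4 to 39.2) in the first domain and 37.6% (29.3 to 46.4) in the second. All these intervals overlap. The combined list holds the reads of both replicates, so agreement with it is in part built in.

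Support followed strength in the domains as it did in the rest of IV. The combined q comes from the merged reads of both replicates, so this gradient is in part built in. All 59 members with −log10 q of 10 or more were in both lists (100%, 93.9 to 100), against 123 of 125 (98.4%) in the rest of IV. Between 5 and 10, 36 of 55 members were in both (65.5%, 51.4 to 77.8), against 104 of 182 (57.1%, 49.6 to 64.4). Between 3 and 5 the counts were 6 of 76 (7.89%, 2.95 to 16.4) and 19 of 193 (9.84%, 6.03 to 14.9). Below 3, 0 of 105 members and 0 of 243 peaks in the rest of IV were in both lists (exact upper limits 3.45% and 1.51%), and 71.4% and 70.4% were in neither. Members with support of both replicates had a median width of 445 bp, and those in neither list 196 bp.

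**Figure D5:**
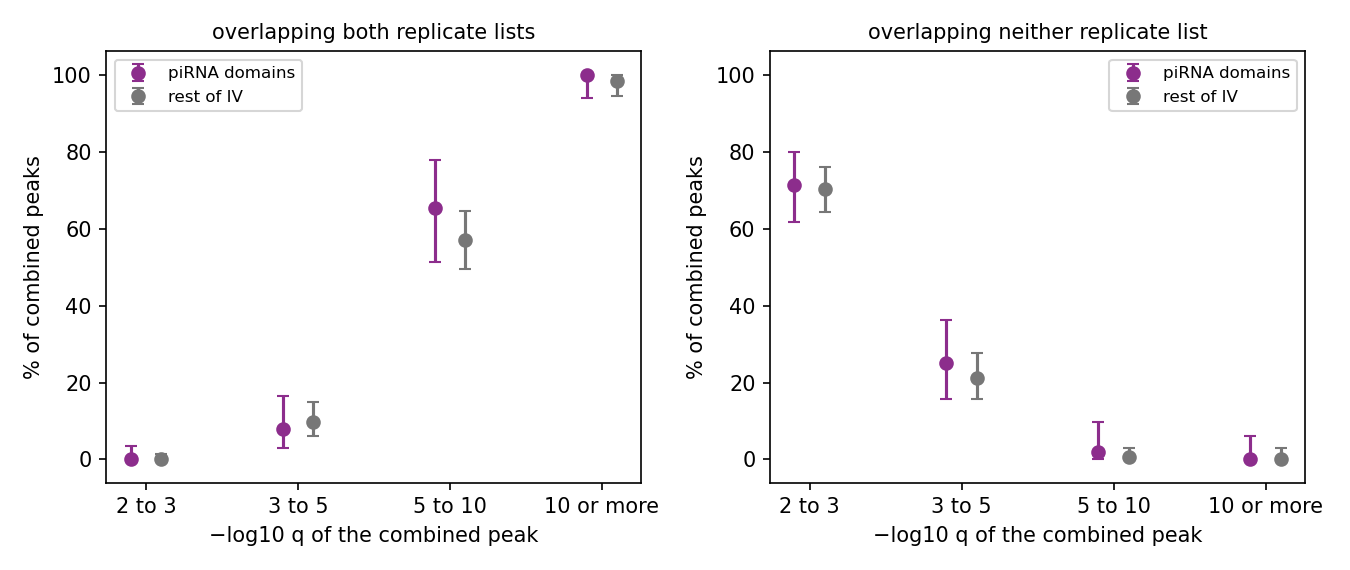
Percent of combined peaks that overlap both replicate lists (left panel) or neither (right panel) in 4 classes of −log10 q, for the piRNA domains (purple) and the rest of chromosome IV (grey), with exact 95% intervals. In each class the intervals of domains and rest overlap, and the share in both lists runs between 0 and 100%.

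Between the replicates themselves, 103 of the 109 replicate 2 peaks in the domains (94.5%, 88.4 to 98.0) overlapped a replicate 1 peak, against 249 of 268 (92.9%, 89.2 to 95.7) in the rest of IV. In the other direction it was 103 of 219 replicate 1 peaks (47.0%, 40.3 to 53.9), against 245 of 556 (44.1%, 39.9 to 48.3). Replicate 1 had 2.01 peaks for each replicate 2 peak in the domains and 2.07 in the rest of IV. Of the 101 members in both lists, 92 had a lower q in replicate 1 than in replicate 2, against 215 of 246 in the rest of IV. The median width of these members was 381 bp in replicate 1 and 322 bp in replicate 2, against 369.5 and 309.5 bp in the rest of IV.

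A few replicate peaks in the domains had no combined counterpart. In replicate 1 they were 19 of 219 (8.68%, exact 95% interval 5.30 to 13.2), against 36 of 556 (6.47%, 4.58 to 8.85) in the rest of IV and 5.16% of the whole list. In replicate 2 they were 4 of 109 (3.67%, 1.01 to 9.13), against 2 of 268 (0.75%, 0.09 to 2.67) in the rest of IV and 1.16% of the whole list. The one with the lowest q was at 14723849 to 14723853 in replicate 1, only 5 bp wide (q = 0.000619). In replicate 2 of the second domain it was a peak of 395 bp at 13549274 to 13549668 (q = 0.00138), which also overlapped a replicate 1 peak. In the first domain the best were a 49-bp replicate 1 peak at 6248606 to 6248654 (q = 0.00532) and a 1-bp replicate 2 peak at position 4686322 (q = 0.00307).

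Spacing followed density. The median gap between neighbouring combined peaks was 9.58 kb in the second domain (95% interval of the median 5.69 to 13.49), 6.09 kb in the first (4.30 to 8.69) and 6.70 kb in the rest of IV (4.96 to 8.17). Gaps of 2000 bp or shorter made up 19.7% of gaps in the second domain (exact 95% interval 13.3 to 27.5) and 28.0% in the first (21.2 to 35.6), against 30.8% in the rest of IV (27.5 to 34.3). The second domain thus had fewer close neighbours in the combined list, where its interval and that of the rest of IV touch only at their ends. In the replicate lists the intervals overlapped more. In replicate 1 the share was 16.3% in the second domain (9.8 to 24.9), against 24.4% in the rest of IV (20.9 to 28.2). In replicate 2 it was 9.1% (3.0 to 20.0), against 12.5% (8.7 to 17.0). Over both domains the share was 24.2% (19.4 to 29.6). In replicate 1 it was 17.5% in the domains and 24.4% in the rest of IV, and in replicate 2 it was 10.3% and 12.5%.

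The longest stretch with no combined peak in a domain, 200024 bp at 15059550 to 15259573 in the second domain, was also free of peaks in both replicate lists. The longest in the first domain, 182.3 kb at 4881045 to 5063354, held 2 replicate 1 peaks and no replicate 2 peak. The longest in the rest of IV was 174.9 kb. Replicate 2 had no peak over 472.8 kb of the second domain, at 15697123 to 16169929, where the combined list had 7 and replicate 1 had 2. Windows of 100 kb with no combined peak numbered 3 of 37 in the second domain (8.11%) and 2 of 25 in the first (8.0%), against 4 of 112 in the rest of IV (3.57%). Windows with no replicate 2 peak numbered 12 of 37 in the second domain and 4 of 25 in the first, against 16 of 112 in the rest of IV. For replicate 1 the counts were 5, 1 and 4 in the same order.

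Members also formed small groups, as did peaks in the rest of IV. Joining combined peaks no more than 2000 bp apart left 117 regions in the first domain and 107 in the second, or 46.8 and 28.9 per Mb, against 45.7 in the rest of IV. Of the 224 joined regions in the domains, 52 held 2 or more peaks, against 142 of 515 in the rest of IV. The largest group in the domains joined 6 combined peaks at 5133913 to 5140281 in the first domain, where replicate 1 had 2 peaks and replicate 2 had 1. The largest in the rest of IV joined 9, at 4019090 to 4031760. The densest 100-kb windows of the domains held 13 combined peaks each. They were at 5.1 to 5.2, 5.5 to 5.6 and 5.6 to 5.7 Mb in the first domain and at 14.8 to 14.9 Mb in the second, against 17 in the densest of the rest of IV, at 4.0 to 4.1 Mb. Replicate support of these windows was unequal. Replicates 1 and 2 had 9 and 7 peaks in the window at 14.8 Mb, but 5 and 2 in that at 5.1 Mb. They had 9 and 2 in that at 5.5 Mb, and 10 and 4 in that at 5.6 Mb.

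The peaks nearest to the borders of the domains had q values between 0.00965 and 1.64e-05. Just inside the left border of the first domain was a peak at 4505127 to 4505250 (q = 0.000356), and just outside was one at 4477087 to 4477488 (q = 0.000115). At its right border the inner peak was at 6959584 to 6959889 (q = 0.00636) and the outer one at 7012831 to 7012979 (q = 0.000199). At the left border of the second domain they were at 13502907 to 13503121 (q = 0.00965) and 13487150 to 13487238 (q = 0.00186), and at its right border at 17118615 to 17118870 (q = 5.46e-05) and 17210778 to 17211070 (q = 1.64e-05). None of these 8 peaks overlapped a replicate 2 peak, and 3 overlapped a replicate 1 peak.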

How the data were processed

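Read counts per library, per the deposited sample table, are whole numbers and not normalized. The authors called peaks with PeakSeq, per the file headers and source columns, on each ChIP library and on the merged ChIP reads. Each peak carries a q-value deposited by the authors, none above 0.01. The sample table names WS180 as the genome version, and the peak coordinates are in WS220, per the file headers, with no peak on chromosome IV among those noted as changed by the transfer. No aligner is named, so the aligner stays unstated here.

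Densities have exact Poisson intervals, their ratios exact conditional (binomial) intervals, shares Clopper-Pearson intervals and medians order-statistic intervals, all at 95% and for counting error only. The length of a chromosome was taken as the end of its last peak in any list. The text names the 10 peaks of lowest combined q in each domain, the widest, the longest gap, the peaks at the borders, the best replicate peak without a combined one and the densest 100-kb windows. The members, lists and comparisons were chosen with earlier results of these data known. No peaks were assigned to genes. The functions were tested on simulated data. Tables were made with pandas 2.3.3, intervals with scipy 1.17.1 and figures with matplotlib 3.10.9, under Python 3.11.15 with numpy 2.4.6.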

Additional observations from a re-analysis of the deposited data

How the results depend on the processing

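The density ratio to the rest of IV stayed inside its own interval under each of 8 alternatives, for both domains together (0.69 to 0.79), for the second domain (0.52 to 0.64) and for the first (0.89 to 1.06, on both sides of 1). The alternatives for each domain apart were chosen after seeing the data. Over all results, 48 of 60 alternative values stayed inside the interval of the reported value. Among those that moved, the median width in the domains was 445 bp (424.5 in the rest of IV) with support of both replicates required, 377.5 bp (366) with q of 0.001 or lower, and 353.5 bp (357) with peaks up to 2000 bp apart joined. The median −log10 q was 10.85 (10.0) with both replicates required and 4.19 (4.88) after joining. The median gap was 11.4 to 31.2 kb with one replicate list alone (8.99 to 24.7 in the rest of IV), 33.7 kb (27.1) with both replicates required and 12.2 kb (11.8) at the stricter q, since each leaves fewer peaks. The share in both lists was 53.2% (49.2%) at the stricter q and 40.6% (41.0%) after joining, and the share in neither was 10.5% (8.40%) at the stricter q. The order of domains and rest of IV turned in median width and in the share in both lists only after joining. It turned in median −log10 q with both replicates required and in the replicate 2 list alone (3.95 against 3.45), and in median gap with the borders moved outwards by 250 kb (6.35 against 6.88 kb). The cause was not tested. No paired analysis was possible because each peak list already sets ChIP against input, and no value was compared library by library.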
